A study of Mus musculus with 4 samples.

Results

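The killer cell lectin-like receptors are represented by every non-control probe of the array whose gene name begins with Klra, Klrb, Klrc, Klrd, Klre, Klrg, Klri or Klrk. The rule took 43 of 41174 probes, for 31 of the 27962 gene names in the files, and used no measured value. Agilent arrays with 2 colours compared CD8+ T cells made in culture with CD8+ T cells of the mouse thymus. The in vitro-derived cells grew from 100000 bone marrow Lin-Sca1+CD117+ cells of 6 to 8 week old C57Bl/6 mice over 35 days on OP9-DL1, a stromal line that carries the Notch ligand Delta-like 1, with Flt3 (5 ng/ml), IL7 (1 ng/ml) and 20% serum. The thymic cells came from 4 to 5 week old C57Bl/6 mice, neither kind of cell was treated, and both were sorted as CD8+ TCR beta-high. The 4 arrays joined each of 2 in vitro preps (Cy5) with each of 2 thymic preps (Cy3). The labels name no separate animals or cultures behind the preps, so p-values reflect only how far these preps spread, which may be technical. Dyes were not swapped, so origin, dye and donor age cannot be told apart.

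These receptors are C-type lectin-like proteins of the cell surface, most of them encoded together in the natural killer gene complex. NK cells and some T cells carry them, in mice chiefly innate-like and memory-like CD8 T cells. CD94, the Klrd1 product, pairs with an NKG2 chain and reads the non-classical MHC class I molecule Qa-1, Ly49 receptors (Klra) mostly read classical MHC class I, and Nkrp1 receptors (Klrb1) read Clec2 proteins. Inhibitory members signal through the phosphatases Shp-1 and Shp-2, and activating members through the adaptors Dap12 and Dap10 or the Fc receptor gamma chain. Of the 43 probes, 40 were placed on chromosome 6 by the array design, for which no genome build is named in the sources used here. Leaving out Klrg1, these lie between positions 128641736 and 131316111. Whether a probe lies in an exon or a UTR was not determined.

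The proximal promoters of 2 pairs of members are shown. Klrb1a and Klrb1c read together across the preps, and Klra5 and Klra9 read differently although both are Ly49 genes. The pairs were chosen after their values were seen. The sequences are RefSeq's, build GRCm38.p6, minus strand, 300 bases each, at chr6:128622885-128623184 for Klrb1a, chr6:128788592-128788891 for Klrb1c, chr6:129913175-129913474 for Klra5 and chr6:130193063-130193362 for Klra9. Capitals mark the longest run that both members of a pair share without a change, 41 bases in the Nkrp1 pair and 31 bases in the Ly49 pair.
Klrb1a: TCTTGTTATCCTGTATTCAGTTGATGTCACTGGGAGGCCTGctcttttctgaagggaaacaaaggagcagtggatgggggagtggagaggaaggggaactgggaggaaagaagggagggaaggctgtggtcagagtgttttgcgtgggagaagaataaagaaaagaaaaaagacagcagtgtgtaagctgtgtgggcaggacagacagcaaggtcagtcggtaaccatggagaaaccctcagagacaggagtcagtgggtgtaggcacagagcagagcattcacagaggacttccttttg
Klrb1c: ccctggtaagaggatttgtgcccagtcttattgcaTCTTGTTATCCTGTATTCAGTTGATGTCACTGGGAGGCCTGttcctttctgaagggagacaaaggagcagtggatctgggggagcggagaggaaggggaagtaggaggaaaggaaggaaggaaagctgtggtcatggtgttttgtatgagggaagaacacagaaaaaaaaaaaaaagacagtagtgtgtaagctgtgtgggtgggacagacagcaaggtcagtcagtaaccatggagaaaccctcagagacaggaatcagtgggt
Klra5: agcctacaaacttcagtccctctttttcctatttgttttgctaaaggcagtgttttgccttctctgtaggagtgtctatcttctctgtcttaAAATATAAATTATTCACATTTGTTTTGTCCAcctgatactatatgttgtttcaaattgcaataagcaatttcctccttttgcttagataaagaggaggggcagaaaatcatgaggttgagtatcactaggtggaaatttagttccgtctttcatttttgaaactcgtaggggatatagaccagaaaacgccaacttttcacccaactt
Klra9: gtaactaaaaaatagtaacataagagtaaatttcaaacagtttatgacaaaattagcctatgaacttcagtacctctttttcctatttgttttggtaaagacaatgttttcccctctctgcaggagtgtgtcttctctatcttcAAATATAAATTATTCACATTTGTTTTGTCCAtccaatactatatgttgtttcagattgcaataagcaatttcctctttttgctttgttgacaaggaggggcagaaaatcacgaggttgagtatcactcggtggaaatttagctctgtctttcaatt
Aligned over their whole length, the Klrb1a and Klrb1c windows were identical at 78.7% of bases and the Klra5 and Klra9 windows at 73.3%. Across the pairs, the Klrb1a and Klra5 windows were identical at 55.7%. Within the family, Klra9 was closer to Klra3 (90.3%) and Klra5 to Klra6 (83.3%). In these windows 4 motifs were searched on both strands, the T-box letters GGTGTGA, the Runx letters TGTGGTT, the Tcf letters CTTTGAA and the GATA letters AGATAAG, and none was found. The family search covered 28 promoter windows of 23 genes. No window was available for Klrd1, Klrg1 or Klri2, so these were not searched. Elsewhere in the family the T-box letters were found for Klra1 and the Runx letters for Klra1, Klre1 and Klrk1. The Tcf letters were found for Klra7 and Klrb1f, and the GATA letters for none of the searched genes. Of all 32851 promoter windows, 3.98% held the T-box letters, 5.27% the Runx letters, 5.14% the Tcf letters and 3.04% the GATA letters.

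Levels are normalised signals in arbitrary units that include an added offset of 50, each the mean of a prep's 2 arrays on the log scale. Most of the family was dim. Of the 43 probes, 18 were not well above background in any of the 8 channel readings, 9 were in some and could not be tested, and 16, each of a different gene name, were tested. The 18 had signals of 57.0 to 92.1, near the lowest signal called well above background on each array (65.4 to 75.4 in Cy5 and 74.1 to 80.9 in Cy3). Probes differ in how well they bind, so signals are compared within a probe and not between probes. Apart from Klrd1, no member had a mean signal above 202.5 in the in vitro-derived cells or 185.1 in the thymic cells.

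**Figure D1:**
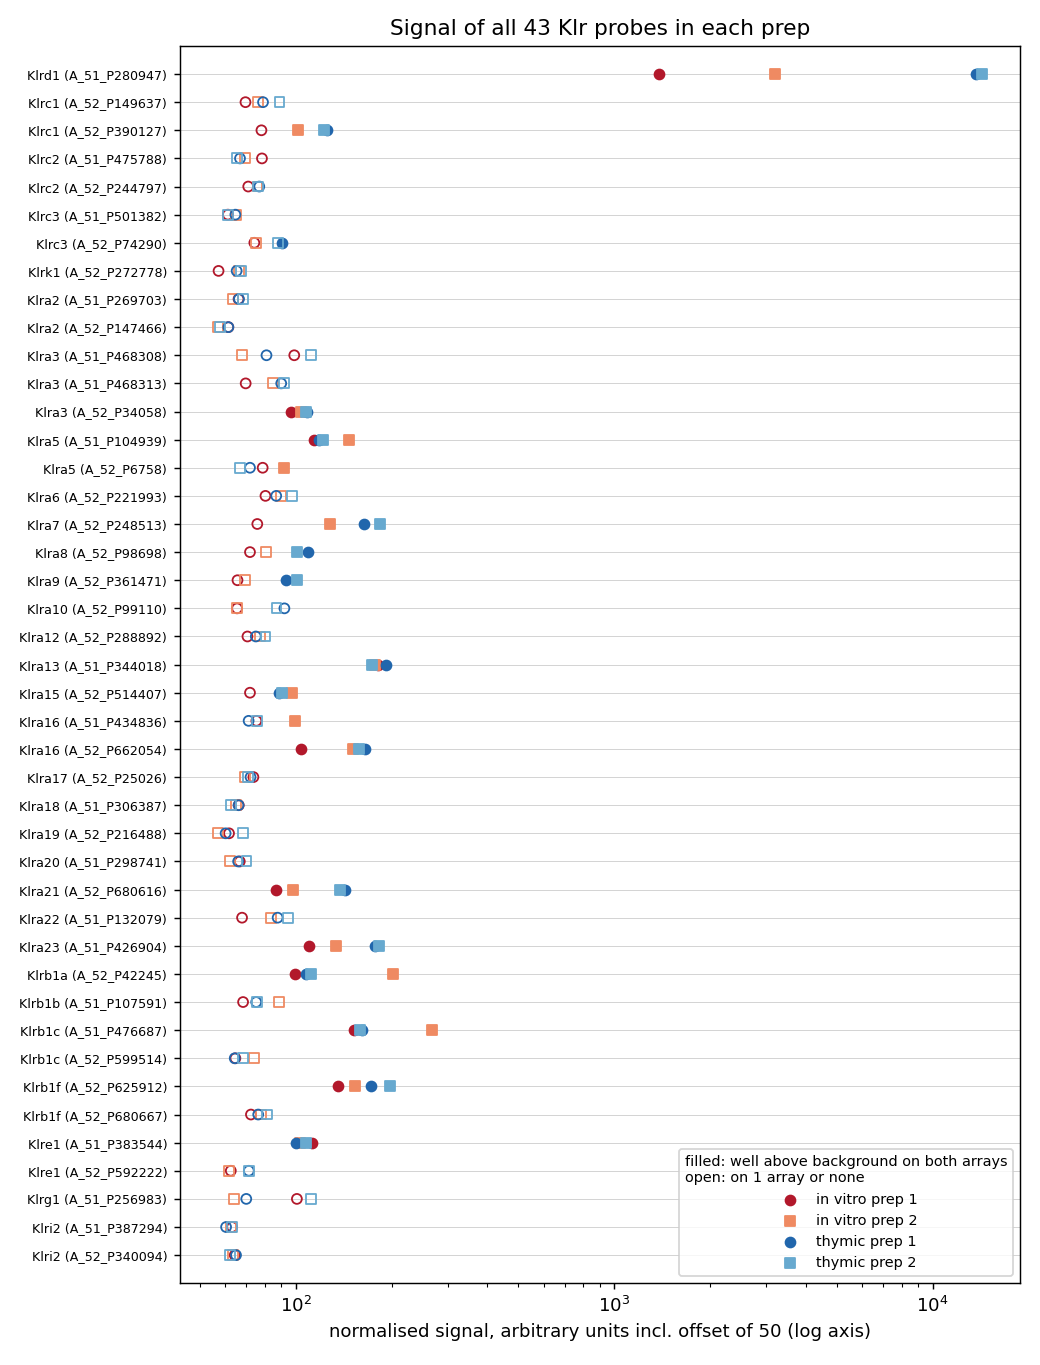
Normalised signal (log axis) of all 43 Klr probes in the 2 in vitro and 2 thymic preps, filled where the probe was well above background on both arrays of the prep. The in vitro points of Klrd1 lie left of its thymic points, and many other probes have open points.

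Testing required that 1 channel or both rose well above background on each of the 4 arrays. All 16 tested probes met this in the thymic channel, and 5 of them (Klra15, Klra7, Klra8, Klra9 and Klrc1) in the thymic channel alone. Those 5 could hardly have been called higher in culture, so the counts that follow and the p-values of those 5 are descriptions. In limma's fit across 27234 probes, 8 of the 16 were lower in the in vitro-derived cells at a Benjamini-Hochberg adjusted p under 0.05 and 0 were higher. Over all tested probes 52.2% were called in either direction and 25.6% were called lower. The median log2 difference was -0.36 over the 16 and 0.03 over all tested probes. With both channels required, 11 members were tested and 4 were called, all lower: Klrd1, Klra21, Klra23 and Klrb1f. Statements below that groups did or did not overlap are descriptions, as the share over all tested probes is not given.

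Klrd1, the common partner chain of the NKG2 receptors, had signals of 1384 and 3197 in in vitro preps 1 and 2, against 13672 and 14330 in thymic preps 1 and 2. The thymic preps were close to each other, while the in vitro preps were both far below them and apart from each other. Its log2 difference was -2.73 ± 0.40 (SE, 2 preps of each kind; limma adjusted p = 0.0034), a 6.66-fold lower signal. It was -2.10 without in vitro prep 1 and -3.37 without in vitro prep 2. The 4 arrays gave log2 ratios of -3.34 and -2.08 against thymic prep 1 and -3.40 and -2.13 against thymic prep 2, with in vitro prep 1 named first each time. The probe lies at chr6:129621685-129621744 in the array design's coordinates. In bulk RNA, fewer cells with a transcript and less of it per cell cannot be told apart.

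The NKG2 chains themselves were near the detection limit. Klrc1 encodes NKG2A, the inhibitory chain. Its probe A_52_P390127 had signals of 78.0 and 101.9 in the in vitro preps, against 125.1 and 122.4 in the thymic preps, so the groups did not overlap. The probe passed the filter through the thymic channel alone. The log2 difference was -0.47 ± 0.10 (SE; limma adjusted p = 0.012). Without thymic prep 1 it was not called (adjusted p = 0.1). In culture it was well above background on both arrays of prep 2 and on neither of prep 1. A_52_P390127 lists no RefSeq transcript, and the Klrc1 probe that matched RefSeq was not well above background anywhere. The same held for both probes of Klrc2 (NKG2C) and 1 of the Klrc3 (NKG2E) probes. The other Klrc3 probe, A_52_P74290, lists RefSeq transcripts of Klrc1, Klrc2 and Klrc3 and so cannot be given to 1 gene. It was well above background on 3 of 4 arrays in the thymic channel and on none in the in vitro channel, and was at least 1.19-fold lower in culture, untested. Klrk1, which encodes the activating receptor NKG2D, was not well above background in either kind of cell by the probe of that name.

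The Ly49 genes (Klra) had 24 probes for 19 gene names. Of these probes 8 were not well above background in any reading: those of Klra10, Klra12, Klra17, Klra18, Klra19 and Klra20 and both of Klra2. A further 6 were well above it in some readings and untested: Klra6, Klra22 and the second probes of Klra5 and Klra16, with 2 of the 3 Klra3 probes. The remaining 10 were tested, of which 5 were called lower. The gene content of this cluster differs between mouse strains and its members are near copies of each other. Of the 24 probes, 11 list several RefSeq accessions, so single names within the group are uncertain. Klra7 encodes Ly49G, an inhibitory receptor. It had signals of 75.7 and 128.4 in the in vitro preps, against 163.5 and 184.2 in the thymic preps. The log2 difference was -0.82 ± 0.20 (SE; limma adjusted p = 0.022), a 1.76-fold lower signal, with every in vitro value below every thymic one. The in vitro channel was well above background on 3 of 4 arrays, so the probe passed the filter through the thymic channel alone. The call was lost without thymic prep 2 (adjusted p = 0.058) and with Agilent's processed signals or the authors' deposited log ratios (adjusted p = 0.077).

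Klra23 and Klra21 were also lower in culture. The Klra23 probe, which lists an accession that RefSeq gives to Klra7, had signals of 109.7 and 134.0 in the in vitro preps, against 177.2 and 182.3 in the thymic preps, a log2 difference of -0.57 ± 0.12 (SE; limma adjusted p = 0.012). Klra21 had 86.6 and 98.1 in the in vitro preps, against 143.0 and 137.7 in the thymic preps, a log2 difference of -0.61 ± 0.06 (SE; limma adjusted p = 0.0011). In both, all in vitro values lay below all thymic ones. The accession of the Klra21 probe did not match RefSeq. Klra21 was not called with the background fitted over all spots (adjusted p = 0.06).

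In the in vitro channel Klra8 and Klra9 were well above background on none of the arrays, and in the thymic channel on all 4. They passed the filter through the thymic channel alone. Klra8 encodes Ly49H, the activating receptor for a mouse cytomegalovirus protein. Its signals were 71.8 and 80.5 in the in vitro preps, against 109.3 and 101.2 in the thymic preps, at least 1.38-fold lower (limma adjusted p = 0.0045). Klra9, which encodes the inhibitory Ly49I, had 65.6 and 69.2 in the in vitro preps, against 93.2 and 100.7 in the thymic preps, at least 1.37-fold lower (limma adjusted p = 0.0043). Such a bound sets the thymic mean against, on each array, the higher of the probe's own in vitro signal and the lowest signal called well above background, and the channels remain open to dye bias. Klra8 was not called without thymic prep 1 (adjusted p = 0.08), nor Klra9 without thymic prep 2 (adjusted p = 0.053).

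The other 5 tested Ly49 probes passed no threshold. Klra16 had signals of 104.0 and 150.9 in the in vitro preps, against 164.6 and 158.5 in the thymic preps, a log2 difference of -0.37 ± 0.17 (SE; limma adjusted p = 0.13). Klra5 had 114.0 and 146.5 in the in vitro preps, against 118.2 and 121.5 in the thymic preps, and here in vitro prep 2 was the highest and prep 1 the lowest. Its log2 difference was 0.11 ± 0.15 (SE; limma adjusted p = 0.58). The log2 differences of Klra3, Klra13 and Klra15 were -0.11, -0.03 and -0.10.

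Of the Nkrp1 genes (Klrb1), 3 probes were tested. Klrb1f, whose protein binds Clec2i, had signals of 135.6 and 153.0 in the in vitro preps, against 172.9 and 198.1 in the thymic preps. It was lower in culture, by a log2 difference of -0.36 ± 0.11 (SE; limma adjusted p = 0.042), a call lost without either thymic prep or without in vitro prep 1. That probe's accession did not match RefSeq, and the matched Klrb1f probe, A_52_P680667, was not well above background in any reading. Klrb1c encodes NK1.1, the classical NK cell antigen of C57Bl/6 mice. Its tested probe had 152.6 and 268.7 in the in vitro preps, against 161.9 and 158.9 in the thymic preps. The other Klrb1c probe, A_52_P599514, also matched RefSeq but was not well above background in any reading. That probe had 64.6 and 74.1 in the in vitro preps, against 64.3 and 68.1 in the thymic preps. Klrb1a, an activating relative, had 99.5 and 202.7 in the in vitro preps, against 107.5 and 111.7 in the thymic preps. In both genes in vitro prep 2 was above the thymic preps and in vitro prep 1 was not. Their log2 differences of 0.34 ± 0.29 and 0.37 ± 0.25 (SE; limma adjusted p = 0.38 and 0.27) did not pass the test. With in vitro prep 2 alone on the culture side, their log2 differences were 0.79 and 0.77. Those values rest on 1 prep, which was also seen to be the higher, so no call is drawn from them. The Klrb1b probe, for the inhibitory receptor of Clec2d, was well above background on 1 array of 4 in the in vitro channel and on none in the thymic channel.

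Among the remaining members, Klre1, an Ly49-like receptor, had signals of 112.4 and 103.4 in the in vitro preps, against 100.4 and 107.4 in the thymic preps. The groups overlapped, and the log2 difference was 0.05 ± 0.06 (SE; limma adjusted p = 0.52). This probe's accession did not match RefSeq either, and the matched Klre1 probe, A_52_P592222, was not well above background in any reading. Klri2, a partner chain of the Klre1 product, was not well above background by either probe. Klrg1, an inhibitory receptor of cadherins found on effector cells, was well above background on 1 array, in both channels.

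**Figure D2:**
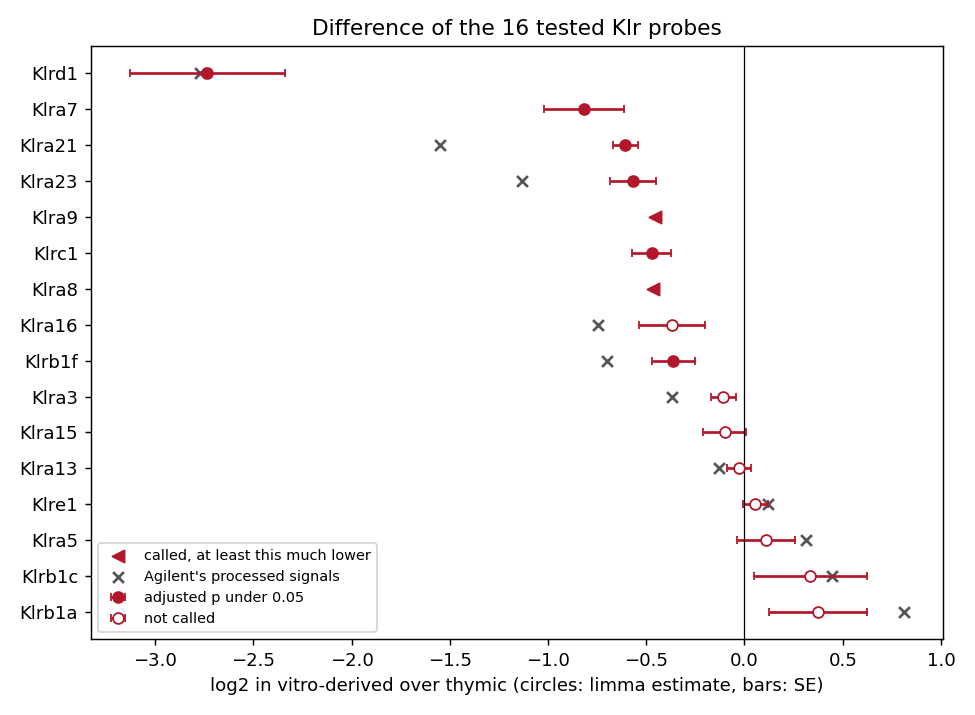
Log2 difference of in vitro-derived over thymic cells for the 16 tested Klr probes (circles with SE, filled where called). Triangles mark Klra8 and Klra9, which were at least that much lower, and crosses the estimate from Agilent's processed signals for probes detected in the in vitro channel on all 4 arrays. Klrd1 is at -2.73, and the crosses of Klra21 and Klra23 lie left of their circles.

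The offset pulls dim probes towards no difference, and Agilent's processed signals, which carry none, gave larger values. By them the log2 difference of Klra21 was -1.55, of Klra23 -1.13 and of Klrb1f -0.70, and that of Klrd1 was -2.77. No such value is given for the 5 probes whose in vitro channel was not well above background on all arrays. With each array centred on its median in place of loess, Klrd1 was at -1.98 (limma adjusted p = 0.0057). With that setting the median of all tested probes was 0.37, 16.4% of all calls were lower against 49.0% with loess, and 8 members were called lower, with Klra3 added and Klrb1f lost.

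The in vitro preps differed from each other. Each difference here is in vitro prep 1 over prep 2, measured once against each thymic prep, and with 1 prep on each side there is no test. Klrd1 was 2.40-fold lower in prep 1, by log2 differences of -1.26 and -1.27, the 15th lowest of 27234 tested probes. It was the only member at least 2-fold apart in both measurements. Of all tested probes 0.106% were that far lower in prep 1 and 0.022% that far higher. Klrb1c differed by -0.80 and -1.02, Klrb1a by -0.87 and -0.71, Klra7 by -0.57 and -0.67, Klra16 by -0.45 and -0.56 and Klra5 by -0.40 and -0.46. The SD of this difference over all tested probes was 0.19. Differences between the thymic preps were smaller, with an SD of 0.11 over all tested probes and at most 0.26 among the 16 members.

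Of the 16 tested members, 11 were lower in in vitro prep 1 in both measurements and 1 was higher, where 40.4% of all tested probes were lower. The median difference was -0.27 over the 16 and -0.01 over all. Detection moved the same way. Of the 43 probes, 0 were well above background on both arrays of prep 1 and neither of prep 2, against 0.503% of all probes, and 4 were on both of prep 2 and neither of prep 1, against 0.219% of all. The 4 were Klra15, Klrc1 A_52_P390127, Klra16 A_51_P434836 and Klra5 A_52_P6758. The counts of any size and of detection were chosen after the data were seen, and probes of near-identical genes are not independent.

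**Figure D3:**
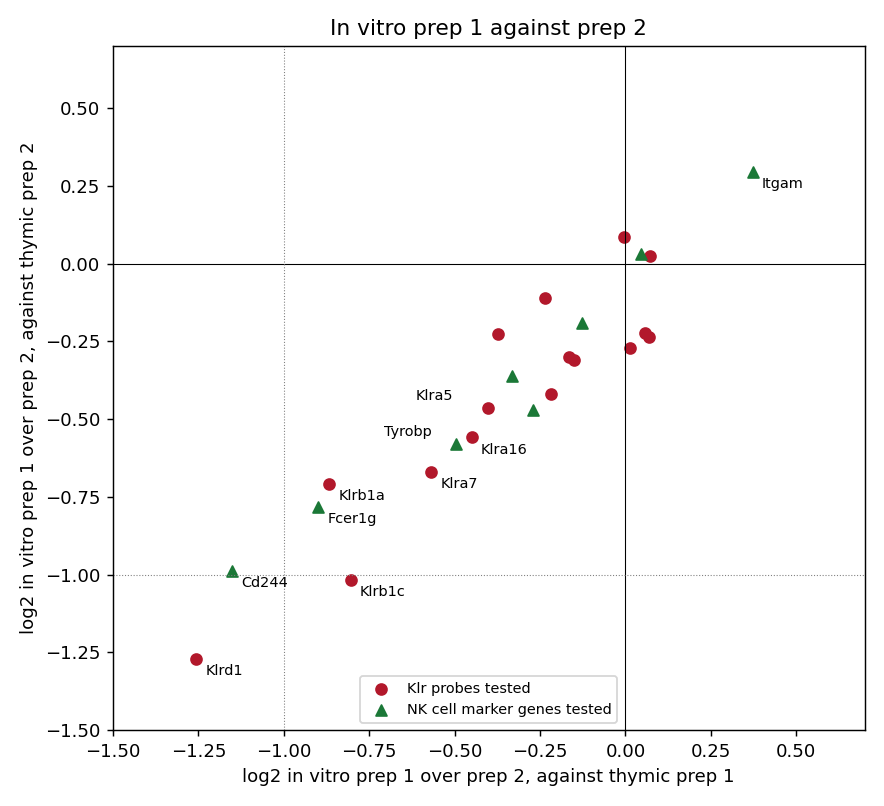
Log2 difference of in vitro prep 1 over prep 2 against thymic prep 1 (x) and thymic prep 2 (y) for the 16 tested Klr probes and the tested NK cell marker genes. Dotted lines mark a 2-fold lower signal in prep 1, which Klrd1 passes on both axes. Klrb1a, Klrb1c, Fcer1g and Cd244 lie nearest to it.

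Markers of other cells moved beside these values. Of 13 NK cell marker genes with a probe, Ncr1, Itga2 and Sh2d1b1 were not well above background in any reading, and Ncr1 is the defining NK receptor. Of the 8 tested, 3 were called higher and 3 lower in culture. Beside the marker counts here, 52.2% of all tested probes were called and 25.6% were called lower. Between in vitro preps 1 and 2, 6 of the 8 were lower in prep 1 in both measurements, as were 40.4% of all tested probes. Cd244 (2B4) differed by log2 values of -1.15 and -0.99, Fcer1g by -0.90 and -0.78 and Tyrobp by -0.50 and -0.58. Itgam (0.37 and 0.30) and Ncam1 (0.04 and 0.03) were higher in prep 1. By their mean difference all 5 stromal markers and 4 of 7 myeloid markers were lower in prep 1. So were 1 of 5 B cell and 0 of 6 CD8 T cell markers. The summed signal of the NK list was 9751 and 11306 in the in vitro preps, against 61320 and 64073 in the thymic preps, most of it Nkg7, which CD8 T cells also express. All 5 stromal markers were higher in culture, with summed signals of 9268 and 11618 in the in vitro preps, against 908.2 and 860.9 in the thymic preps. Of 7 tested myeloid markers 1 was higher and 3 were lower in culture, with summed signals of 1245 and 1239 in the in vitro preps, against 1466 and 1466 in the thymic preps. Of 5 B cell markers 1 was higher and 1 lower, with sums of 3209 and 2852 in the in vitro preps, against 3519 and 3511 in the thymic preps. Of 6 CD8 T cell markers 1 was higher and 4 were lower in culture. With median centring 3 of these calls turned from lower to higher and 1 was lost. The CD8 T cell markers were bright in every prep, with sums of 377333 and 324281 in the in vitro preps, against 419139 and 419695 in the thymic preps. The part of other cells in the receptor values was not tested.

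All 6 tested genes of the innate-like and memory-like CD8 list were called lower in culture, as were 25.6% of all tested probes. With median centring Tbx21 lost its call. Il2rb, the IL-2 and IL-15 receptor beta chain, had signals of 3301 and 4276 in the in vitro preps, against 19460 and 20015 in the thymic preps. Its log2 difference was -2.39 ± 0.14 (SE; limma adjusted p = 0.00017) and -1.57 with median centring. Cxcr3 and Cd44 were lower by log2 differences of -2.35 and -1.95.

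Among ligands, 9 genes were tested, 4 were lower and 1 was higher in culture (52.2% of all tested probes were called). Clec2d, the ligand of the inhibitory Nkrp1b, had signals of 638.9 and 701.8 in the in vitro preps, against 4007 and 3918 in the thymic preps, a log2 difference of -2.57 ± 0.07 (SE; limma adjusted p = 2.6e-05) and -1.95 with median centring. The classical class I genes H2-K1 and H2-D1 were lower by log2 differences of -1.77 and -1.48 with loess and of -0.41 and -0.27 with median centring. H2-T23, which encodes Qa-1, was lower by a log2 difference of -1.11 with loess, but was at 0.15 and not called with median centring. Ulbp1, a ligand of NKG2D, was higher, by 0.89 ± 0.13 (SE; limma adjusted p = 0.0037). Clec2i, the Nkrp1f ligand, did not pass the test (log2 difference 0.03), although with median centring it was called higher at 0.57.

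Of 14 tested adaptor and signalling genes 5 were higher and 7 lower in culture (52.2% of all tested probes were called). Of these 12 calls, 8 had the same direction with median centring, 3 that were lower were called higher and 1 was lost. The kinase gene Syk was higher by 1.52, and Sh2d1a, which encodes SAP, by 2.33. Hcst, which encodes the NKG2D adaptor Dap10, was at -1.03 with loess and -0.22 with median centring, lower in both. Inpp5d, which encodes the inhibitory phosphatase Ship-1, was at -1.22 and -0.47, and the kinase gene Fyn at -1.07 and -0.43, in the same order and also lower in both. Ptpn6, which encodes Shp-1, was at -0.98 with loess, but at -0.05 and not called with median centring.

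The adaptor genes Fcer1g and Tyrobp are also on the NK marker list. Both were higher in culture, unlike the adaptor gene Hcst (log2 difference -1.03). Of the other tested NK markers, Itgam was called higher (0.64), through the in vitro channel alone. Xcl1 (-3.06), Nkg7 (-2.90) and Cd160 (-0.68) were called lower, Cd160 not with median centring. Cd244 and Ncam1 were not called. Fcer1g, the Fc receptor gamma chain that serves NK1.1, had signals of 507.5 and 931.7 in the in vitro preps, against 365.8 and 346.1 in the thymic preps, a log2 difference of 0.95 ± 0.27 (SE; limma adjusted p = 0.033). Tyrobp (Dap12), the adaptor of activating Ly49 receptors, had 195.4 and 288.4 in the in vitro preps, against 138.1 and 129.9 in the thymic preps, a log2 difference of 0.83 ± 0.18 (SE; limma adjusted p = 0.014). In both genes every in vitro value lay above every thymic one.

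Of 12 tested transcription factors 6 were higher and 5 lower in culture (52.2% of all tested probes were called). For 1 of those counted as higher, another probe of the gene was called lower. Id2 and Eomes, both needed by NK cells, were lower by log2 differences of -2.74 ± 0.08 and -2.58 ± 0.09 (SE), and of -1.94 and -2.34 with median centring. Runx3 was lower by -0.87 and Tbx21 (T-bet) by -0.75, the second not called with median centring. Gata3 was higher by 2.20 and Tcf7 by 1.45, and by 2.93 and 2.53 with median centring. Of 2 tested neighbours of the receptors in the lectin-like cluster, Cd69 was not called and Clec1b was called higher. Clec1b had signals of 158.6 and 109.5 in the in vitro preps, against 86.8 and 75.6 in the thymic preps, where no array showed it well above background, so it passed the filter through the in vitro channel alone.

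**Figure D4:**
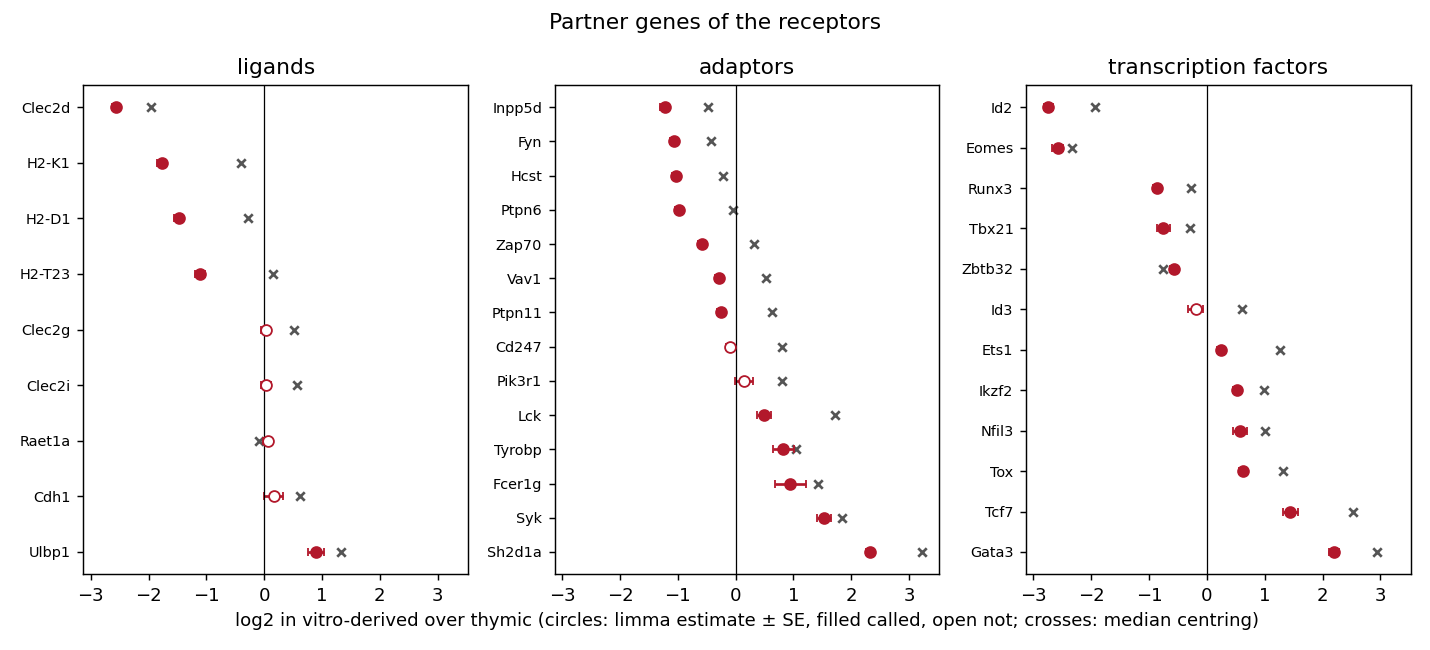
Log2 difference of in vitro-derived over thymic cells for tested ligand, adaptor and transcription factor genes (circles with SE, filled where called), with the median-centred estimate as crosses. Clec2d, Id2 and Eomes are the lowest of their panels and stay lower with median centring, while the cross of H2-T23 lies on the other side of 0.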

How the data were processed

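RNA of 2 in vitro and 2 thymic preps was hybridised on 4 arrays, all on 1 slide and in 1 scan. The authors deposited linear spot intensity values (Feature Extraction version 9.5.1.1 according to the file headers) and a table of log10 ratios of Cy5 over Cy3, used as an alternative. Flags in the same deposited files mark spots well above background. The number of arrays limits the precision.

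Mean signals were corrected with normexp (offset 50) and loess within each array in limma 3.58.1 (R 4.3.3), with marked spots left out first, a choice made after the data were seen. No member was marked. The 4 log ratios gave 1 value for each prep, fitted with lmFit and eBayes, which left 2 residual degrees of freedom. An exact permutation test of 2 against 2 could not go below p = 0.333. P-values were adjusted over 27234 tested probes. The fit was also run on simulated data, in which all probes had the same spread and few were changed. The real data differ in both, so that run lends these p-values no support. Signals were scaled with Aquantile. Every member was named. From each list of ligands, adaptors, transcription factors and other lectin-like genes at most 6 were named, by size among called genes or to complete a role, and marker genes were named after their values were seen. For list genes with several probes 1 probe stood for the gene. Accessions of 29 members matched RefSeq and 14 did not. The members and lists were chosen with earlier results of these data known.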

Additional observations from a re-analysis of the deposited data

Results flagged for a closer look

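The Klra16 probe A_51_P434836 and the Klra5 probe A_52_P6758 were not tested, yet both were well above background on the 2 arrays of in vitro prep 2 and on no other channel reading. Their signals there were 99.5 and 91.7. In vitro prep 1 had signals of 75.2 and 78.7, not well above background, so no fold is given for the in vitro-derived cells as a group. The tested probes of these genes had log2 differences of -0.37 (Klra16) and 0.11 (Klra5), neither called.

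The Klra3 probe A_51_P468308 and the Klrg1 probe each had 1 array far from the other 3 in both channels. For Klra3 the gap to the nearest array took 0.976 of the whole range of Agilent's processed signal in Cy5 and 0.935 in Cy3, and for Klrg1 0.986 in Cy5 and 0.971 in Cy3, above Dixon's critical value for 4 values. The same rule was run on the log ratios of the 16 tested probes, where it marked none. Such a gap arises by chance in about 1 of 20 groups of values, and each of the 43 probes in each channel is such a group. Dim readings of other members passed the critical value too, such as Klra17 in both channels and Klrb1b in Cy3. The Klra3 and Klrg1 probes both stand out on the array that joined in vitro prep 1 with thymic prep 2. Neither prep showed the gap on its other array.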

How the results depend on the processing

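Of 299 values of single probes under the alternatives, 267 kept their direction and side of the threshold, 17 lost a call, 9 gained one and 6 changed sign. With median centring Klra13 turned to 0.21, which was called, and Klre1 to -0.039. Without in vitro prep 1 Klra15 turned to 0.049, and without in vitro prep 2 Klra5 turned to -0.11, Klrb1a to -0.020 and Klrb1c to -0.12, none of them called in either setting. The 8 calls, all lower, became 5 with marked spots kept (37.2% of all tested probes called, against 52.2%), 5 with a background fit over all spots (37.3%), 4 with both channels required (53.0%) and 14 of 43 (13 lower, 1 higher) with no filter (34.4%). Median centring called 9 members, 8 lower and 1 higher, Klra13 (70.7% of all tested probes called). Leaving out a prep or an array gave 5 to 10 calls, 5 to 10 of them lower and 0 to 3 higher. Without in vitro prep 1 the log2 differences of Klra5, Klrb1a and Klrb1c were 0.33, 0.77 and 0.79, and Klra7 was at -0.51. Without in vitro prep 2 Klra15 and Klra16 were at -0.25 and -0.62. Fewer of all tested probes were called when either thymic prep was left out. Without thymic prep 1 Klra8, Klrb1f and Klrc1 lost their calls, and without thymic prep 2 Klra7, Klra9 and Klrb1f did. Klra21, Klra8 and Klrc1 lost theirs with the background fitted on all spots (adjusted p = 0.06, 0.091 and 0.095), and Klra7 with Agilent's processed signals (adjusted p = 0.077). With the prep number as a replicate block 9 members were called, Klra16 being added (53.9% of all tested probes called). The numbers of in vitro and thymic preps are not known to pair. The count of members at least 2-fold lower in in vitro prep 1 was 1 (0.106% of all tested probes passed). It was 2 with an offset of 16 (0.136%) and 5 with Agilent's processed signals (0.33%). With the processed signals Klra7 and Klra15 were not well above background on both prep 1 arrays. The authors' deposited log ratios also gave 5. At a limit of 1.5-fold, chosen after seeing the data, the count was 3, without a share over all tested probes. With a prep or array left out it was 1 to 2. Where a prep was left out the lone prep was assumed to vary like the others, and the cause of the other changes was not tested. Most members lie within a few fold of the detection limit, which bounds what these arrays can show.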

Other observations

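Of the 29 probes at least 2-fold lower in in vitro prep 1 in both measurements, the family held Klrd1 alone. The same 29 held Gzmb (log2 difference -1.52) and Ccl5 by both of its probes (-1.66 and -1.48), which cytotoxic T cells and NK cells express, and Cd7 (-1.12). They also held Asns (-2.01), Trib3 (-1.97), Chac1 (-1.35) and Atf5 (-1.33), genes known from the amino acid stress response. These genes were named after their values were seen.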
